A study of Mus musculus with 7 samples.

Results

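The 8 genes described here encode members or partners of the subcortical maternal complex: Ooep, Tle6, Nlrp5, Khdc3, Padi6, Nlrp14, Zbed3 and Uchl1. They were found by their exact symbols among the 31053 genes of the count tables, and all 8 were present in each of the 7 tables. Their levels were read in germ cells, which were taken as cells with at least 200 detected genes and at least 3 UMIs of Dazl plus Ddx4, both of them RNA-binding protein genes of the germline. A UMI (unique molecular identifier) marks 1 captured RNA molecule, and levels are given as UMIs of a gene per 1000000 UMIs of the same cells (CPM).

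The data were droplet single-cell RNA counts of gonads from wild-type, untreated C57BL/6J mice, with 1 library at each of 7 ages: a gonad library at E11.5, ovary libraries of the 4 embryonic ages E12.5, E14.5, E16.5 and E18.5, and ovary libraries at P1 and P5 after birth. Gonads of several embryos or pups were pooled in a library, so no value below has a replicate. Intervals in parentheses are 95% exact intervals that cover counting error only, a difference between ages is a difference between 2 libraries, and no p-value was computed. The comparison of ages asks when these genes are found in the germline between the start of meiosis and the first follicles.

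The subcortical maternal complex is a protein assembly beneath the membrane of the egg and early embryo. It is built from maternal RNA and protein that the oocyte makes during its growth, and in mice the loss of several of its members stops embryos early in cleavage. Ooep, Tle6, Nlrp5 and Khdc3 are taken as its core. Padi6, Nlrp14 and Zbed3 are oocyte proteins placed with the complex or with the lattices of the egg cytoplasm, and Uchl1 is a deubiquitinating enzyme that is abundant in neurons and germ cells.

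Of 50823 cells with at least 200 genes, the germ cell gate took 9, 321, 2669, 1016, 439, 244 and 62 in the 7 libraries in order of age. The E11.5 values thus rest on 9 cells, and the account below turns on E16.5 to P5. The libraries held 31960736 to 124390521 UMIs, and from E16.5 to P5 the median germ cell held 25098, 12107, 20902 and 60954 UMIs. Germ cell markers that the gate did not use (Sycp3, Mael, Taf7l, Ybx2, Tex101, Mov10l1, Dnd1 and Stk31) summed to 1990 to 4487 CPM in the gated cells from E16.5 to P5, with 8 of 8 detected except at P5, where Tex101 was at 0. In the 3075 to 8774 cells per library with no Dazl or Ddx4 UMI, called ungated cells below, they summed to 12.51 to 51.3 CPM. A somatic list of 12 markers summed to 231, 164, 95.9 and 41.6 CPM in the gated cells at E16.5, E18.5, P1 and P5, and to 1083 to 2505 CPM in ungated cells. At P5, 11 of these 12 were detected in the gated cells and Cdh5 was at 0. The E16.5 library shared 0 to 3 cell barcodes with each of the other 6, whereas the other 15 pairs of libraries shared 20 to 131. The labels name the same droplet chemistry for all 7, and whether E16.5 was made with another was not tested, so that this difference and age cannot be told apart in any ratio to E16.5. Trypsin treatment lasted 20 min at E11.5 and E12.5, 40 min at E14.5 and E16.5, 1 hour at E18.5 and 80 min at P1 and P5. Except between libraries treated for the same time, age and dissociation time cannot be told apart.

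The genes lie on 6 chromosomes of GRCm38 and all 8 are protein-coding. Ooep lies at chr9:78376109-78378725 on the minus strand and Khdc3 at chr9:73101836-73104438 on the plus strand. Nlrp5 spans chr7:23385889-23441922 and Nlrp14 chr7:107166990-107198102, both on the plus strand. Tle6 is at chr10:81590904-81601073 on the minus strand, and the opposite-strand gene Tle2 ends 59 bp beyond its 3′ end. Padi6 occupies chr4:140727355-140742643 on the minus strand, Zbed3 chr13:95323612-95337841 on the plus strand and Uchl1 chr5:66676091-66687234 on the plus strand. Khdc3 is overlapped on its own strand by Gm20509, which was listed at 0 UMIs in the gated cells of all 7 libraries, so reads in the shared part may have been discarded and the level of Khdc3 is uncertain. Nlrp5 is 97.1% identical over 1025 bp to the pseudogene Nlrp5-ps, which has no row in the count tables, so reads from the pseudogene cannot be told apart within that stretch. Uchl1 overlaps the antisense gene Uchl1os, which held 0 to 22 UMIs in the gated cells of a library.

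Upstream sequence is shown for Ooep, Tle6, Nlrp5 and Padi6, so that the letters before their start sites can be compared. All 8 members were higher at P1 than at E18.5, so this trait does not set these 4 apart. RefSeq windows of 300 bases around the transcription start (GRCm38.p6) were available for 7 of the 8 genes, and only bases upstream of annotated exons are printed, from 5′ to 3′ on the gene's strand. Tle6 and Nlrp5 had 2 windows each and Zbed3 had 3, and the window with the most upstream start was taken. Capitals mark E-boxes (CANNTG), the hexamer bound by basic helix-loop-helix factors such as Figla and the Sohlh proteins, and the homeodomain core hexamers TAATTG, which reads CAATTA on the other strand, and TAATTA, bound by factors of the Nobox and Lhx8 kind.
Ooep (chr9:78378726-78378838, minus strand): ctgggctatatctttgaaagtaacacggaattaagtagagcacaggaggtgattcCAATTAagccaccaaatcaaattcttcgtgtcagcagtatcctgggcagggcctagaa
Tle6 (chr10:81601074-81601150, minus strand): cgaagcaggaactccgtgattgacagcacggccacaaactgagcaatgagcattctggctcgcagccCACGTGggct
Nlrp5 (chr7:23385639-23385888, plus strand): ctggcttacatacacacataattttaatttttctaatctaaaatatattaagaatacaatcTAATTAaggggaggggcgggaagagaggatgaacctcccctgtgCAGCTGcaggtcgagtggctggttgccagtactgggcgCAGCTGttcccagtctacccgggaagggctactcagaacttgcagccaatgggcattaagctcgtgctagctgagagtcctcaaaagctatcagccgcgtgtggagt
Padi6 (chr4:140742644-140742893, minus strand): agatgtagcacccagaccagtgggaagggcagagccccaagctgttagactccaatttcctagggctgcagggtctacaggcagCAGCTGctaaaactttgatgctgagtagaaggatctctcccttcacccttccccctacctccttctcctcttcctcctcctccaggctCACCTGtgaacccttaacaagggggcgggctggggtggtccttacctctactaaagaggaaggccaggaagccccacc

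On either strand of the whole 300-base windows, CANNTG was found in 6 of the 7 genes, all but Uchl1, and in 72.3% of the 32851 windows of the RefSeq table. Those windows belong to 27025 genes, so a gene can count more than once in the shares of all windows. TAATTG was found in Ooep and Padi6 and in 8.0% of all windows, TAATTA in Nlrp5 and in 5.29%, and the TATA hexamer TATAAA in 0 of 7 and in 13.6%. In Padi6 the TAATTG match starts 9 bases after the transcription start and lies outside the printed stretch. The CANNTG match of Ooep at position -78 and those of Tle6 at -119 and -1 also lie outside the printed stretches. No CANNTG match overlapped a TAATTG or TAATTA match in the 7 windows. These matches describe letters in a window and not bound sites.

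Ooep encodes an RNA-binding-like protein with a KH domain. In gated germ cells it was at 22.3 CPM at E11.5 (5 UMIs), then at 32.6 CPM at E12.5, 15.3 at E14.5 and 5.62 at E16.5, and from there at 35.2 CPM at E18.5, 157 CPM at P1 and 3117 CPM at P5. The lowest level was at E16.5 and the highest at P5. The E12.5 (28.6 to 37.0) and E18.5 (30.4 to 40.5) intervals overlapped, and that of E11.5 (7.23 to 51.9) overlapped those of E12.5, E14.5 and E18.5. The level was 6.27-fold higher at E18.5 than at E16.5 (5.03 to 7.84), 4.47-fold higher at P1 than at E18.5 (3.83 to 5.24) and 19.8-fold higher at P5 than at P1 (18.52 to 21.2). From E16.5 to P5 the ratio was 555 (470 to 660). At P5 Ooep was detected in 62 of 62 gated cells, and at P1 in 163 of 244.

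Tle6 encodes a Groucho-family protein that, unlike its relatives, is known for its role in the egg. Its levels were 13.4 CPM at E11.5 (3 UMIs) and then 10.2 at E12.5, 8.98 at E14.5 and 13.8 at E16.5, and from there 56.1 CPM at E18.5, 251 CPM at P1 and 840 CPM at P5. Up to E16.5 the levels lay close together, with the intervals of E12.5 (8.07 to 12.8) and E14.5 (8.03 to 10.0) overlapping, and that of E12.5 also reaching the E16.5 interval (12.4 to 15.3). Each later library then stood above the one before, by 4.08-fold at E18.5 (3.49 to 4.77), 4.47-fold at P1 (3.96 to 5.07) and 3.35-fold at P5 (3.15 to 3.56). Ooep and Tle6 had the same ratio from E18.5 to P1, and Ooep had the larger ratio from P1 to P5, with intervals that did not overlap.

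Nlrp5, also called Mater, encodes an NLR protein and is a classic maternal-effect gene. It had 0 UMIs at E11.5, where 3 UMIs would equal 13.4 CPM, and stood at 0.270 CPM at E12.5 (2 UMIs), 0.220 at E14.5 (8 UMIs), 1.11 at E16.5 (28 UMIs), 4.90 at E18.5 (27 UMIs), 123 at P1 (745 UMIs) and 356 at P5 (1225 UMIs). E12.5 and E14.5 did not differ beyond their intervals. The ratios were 4.43 from E16.5 to E18.5 (2.51 to 7.79), 25 from E18.5 to P1 (17.0 to 38.2) and 2.90 from P1 to P5 (2.65 to 3.19), so that the largest step of Nlrp5 was around birth. Without gated cells that held 3 or more somatic marker UMIs, the ratio from E18.5 to P1 was 46.4. The step from E18.5 to P1 was larger for Nlrp5 than for Ooep or Tle6, and the step from P1 to P5 smaller than for Ooep, in each case with intervals that did not overlap. Nlrp5 was detected in 88 of 244 gated cells at P1 and in 43 of 62 at P5. The median P5 cell was at 186 CPM, below the pooled level, and a P5 cell with 98641 UMIs held 0 Nlrp5 UMIs. The pooled level thus does not stand for each cell.

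Khdc3, known as Filia, encodes another KH-domain protein of the core. Its levels were 4.45 CPM at E11.5 (1 UMI), 3.24 at E12.5 (24 UMIs), 0.961 at E14.5 (35 UMIs) and 0.830 at E16.5 (21 UMIs). They were then 0.363 CPM at E18.5 (2 UMIs), 7.24 at P1 (44 UMIs) and 157 at P5 (539 UMIs). The values from E14.5 to E18.5 had overlapping intervals, and E12.5 lay above E14.5 and E16.5. The ratio from E16.5 to E18.5 was 0.437 with an interval from 0.0497 to 1.79 that spans no change. It was then 19.9-fold higher at P1 than at E18.5 (5.20 to 170, against 2 UMIs) and 21.6-fold higher at P5 than at P1 (15.9 to 30.1). The deepest P5 cell, with 154669 UMIs, held 21.3% of the Khdc3 UMIs of that library. Without that cell the P5 level was 129 CPM (117 to 142) and the ratio to P1 17.8 (13.0 to 24.9). Khdc3 was detected in 36 of 62 gated cells at P5. The median of these 62 cells was 20.2 CPM and the upper quartile 92.7 CPM, both below the pooled level.

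Padi6 encodes a peptidylarginine deiminase relative of the egg's cytoplasmic lattices. From E11.5 to E18.5 its 5 libraries held 0, 2, 6, 1 and 4 UMIs, at most 0.726 CPM in the 4 with a UMI, and there were then 530 UMIs or 87.2 CPM at P1 and 5266 UMIs or 1530.5 CPM at P5. With 4 UMIs against 1, the ratio of E18.5 over E16.5 was 18.4 with an interval from 1.82 to 904. Padi6 was 120-fold higher at P1 than at E18.5 (46.6 to 442, against 4 UMIs) and 17.5-fold higher at P5 than at P1 (16 to 19.2). Cells with a Padi6 UMI numbered 1 of 1016 at E16.5, 3 of 439 at E18.5, 79 of 244 at P1 and 59 of 62 at P5.

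Nlrp14, an NLR gene expressed in germ cells, was close to the limit of detection before birth. From E11.5 to E18.5 its 5 libraries held 0, 1, 5, 1 and 0 UMIs, and at E18.5 3 UMIs would equal 0.545 CPM. At P1 it had 86 UMIs (14.2 CPM) and at P5 1249 UMIs (363 CPM). With E18.5 set to the 3-UMI limit, the bound on its ratio of P1 over E18.5 was 26.0. The exact interval of that ratio began lower, at 20.7. Nlrp14 was 25.7-fold higher at P5 than at P1 (20.6 to 32.3).

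Zbed3 encodes a zinc finger protein known as an Axin partner and as a partner of the complex. It had 0 UMIs at E11.5, and its levels were 1.89 CPM at E12.5, 2.50 at E14.5 and 6.41 at E16.5, and then 28.1 CPM at E18.5, 187 CPM at P1 and 476 CPM at P5. E12.5 (1.03 to 3.17) and E14.5 (2.01 to 3.07) overlapped, and the libraries from E14.5 on stood in the order of age. The ratios were 4.39 from E16.5 to E18.5 (3.50 to 5.51), 6.64 from E18.5 to P1 (5.61 to 7.90) and 2.55 from P1 to P5 (2.36 to 2.75). With the 5% of germ cells with the most UMIs left out, the first was 2.57 and the second 11.4. A single P5 cell with 154669 UMIs, the deepest of the 62, held 31.8% of the Zbed3 UMIs of that library. Without this cell the P5 level was 340 CPM and the ratio to P1 1.82 (1.67 to 1.98), which is below 2.

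Uchl1 was at 57.9, 64.6, 58.4 and 38.7 CPM in the 4 libraries from E11.5 to E16.5, and at 471 CPM at E18.5, 2088 CPM at P1 and 2876 CPM at P5. The E11.5 interval (30.8 to 99.0) overlapped those of E12.5, E14.5 and E16.5, and E12.5 (58.9 to 70.6) and E14.5 (55.9 to 60.9) overlapped as well. The step from E16.5 to E18.5 was 12.2-fold (11.3 to 13.1), that from E18.5 to P1 4.44-fold (4.25 to 4.63) and that from P1 to P5 1.38-fold (1.34 to 1.41). Uchl1 was the gene of the 8 with the smallest ratio from P1 to P5, and its interval overlapped that of no other member.

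**Figure D1:**
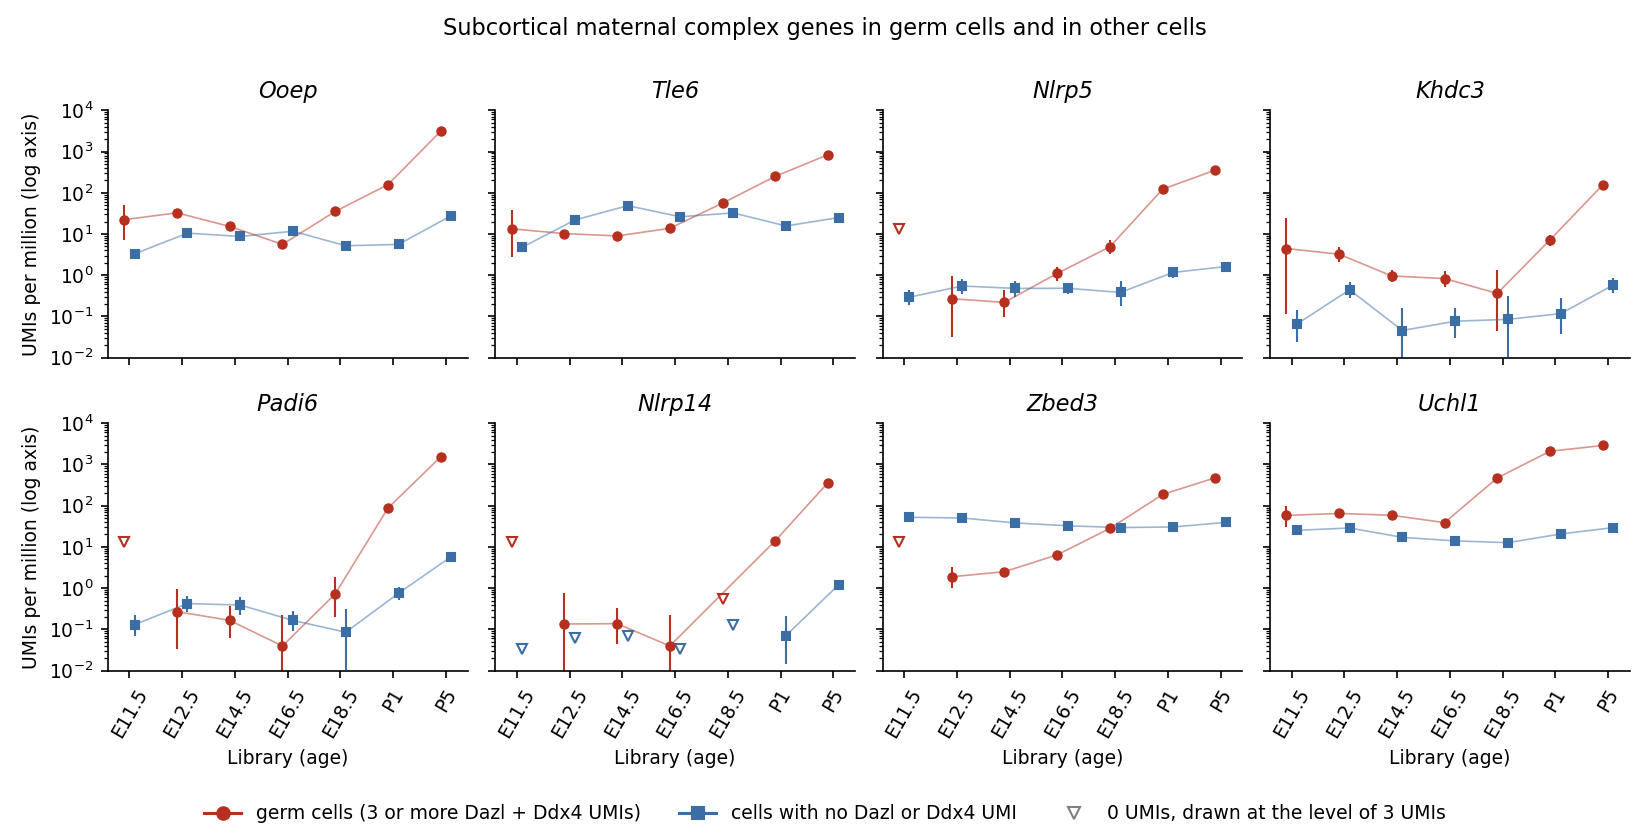
CPM (log axis) of each gene by library, in gated germ cells (red circles) and in cells with no Dazl or Ddx4 UMI (blue squares), with 95% exact counting intervals. Open triangles mark 0 UMIs, drawn at the level of 3 UMIs, and the lines only join libraries. In all 8 panels the red point is highest at P5, from 157 CPM for Khdc3 to 3117 for Ooep.

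The members were set against all genes in each comparison of ages. Genes with at least 10 UMIs over the pair of libraries are called tested, which means counted against a fold and not a statistical test. Of these, 5 of the 6 members tested were at least 2-fold higher at E18.5 than at E16.5, where 12.3% of 16195 genes were. The other 1 member, Khdc3, was at least 2-fold lower, where 20.3% of genes were. Its call rests on 2 against 21 UMIs, with an interval that spans no change. From E18.5 to P1 all 8 members were at least 2-fold higher, against 11.49% of 13738 genes, and 0 members were lower, against 19.4%. From P1 to P5, 7 of 8 were higher, against 15.1% of 12960 genes, and 0 were lower, against 13% of genes, and without the 1 deep P5 cell described above the count was 6 of 8. It was also 6 after gated cells with 3 or more UMIs of the somatic list were left out, which were 55 of 244 at P1 and 21 of 62 at P5, since the log2 ratio of Zbed3 was then 0.78. The other 3 counts did not move. From E16.5 to P5 all 8 were higher, against 20.9% of 16359 genes, with 32.4% of genes lower. The median ratio of the members tested was 4.41, 13.3, 10.4 and 255 in these 4 comparisons, and the median ratio of all genes tested was 0.895, 0.906, 0.986 and 0.832. Padi6 and Nlrp14 were not tested from E16.5 to E18.5, so the comparisons do not hold the same members. Both passed the UMI limit only through P1 from E18.5 to P1 and only through P5 from E16.5 to P5. From E18.5 to P1, Khdc3 also passed only through P1. For these genes the filter favoured a higher level.

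Since E16.5 differed from the other libraries in its barcodes, E14.5 and E18.5 were also set in its place, a choice made after the data were seen. At E18.5, 6 of the 7 members tested were at least 2-fold higher than at E14.5, where 28% of genes were, and Khdc3 was lower, where 12.2% of genes were. The Padi6 call rests on 4 against 6 UMIs (ratio 4.41, 0.915 to 18.6). That of Khdc3 rests on 2 against 35 UMIs (0.378, 0.0440 to 1.47). Both intervals span no change. At P5, all 8 were at least 2-fold higher than at E18.5, against 19.3% of genes higher and 25.9% lower. Khdc3, Padi6 and Nlrp14, with 2, 4 and 0 UMIs at E18.5, passed the UMI limit only through P5. The ratio of P5 over E18.5 was 88.5 for Ooep (76.8 to 103), 15 for Tle6 (13.3 to 16.9), 72.6 for Nlrp5 (49.7 to 111) and 6.11 for Uchl1 (5.85 to 6.38). P1 and P5 were dissociated for the same time.

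**Figure D2:**
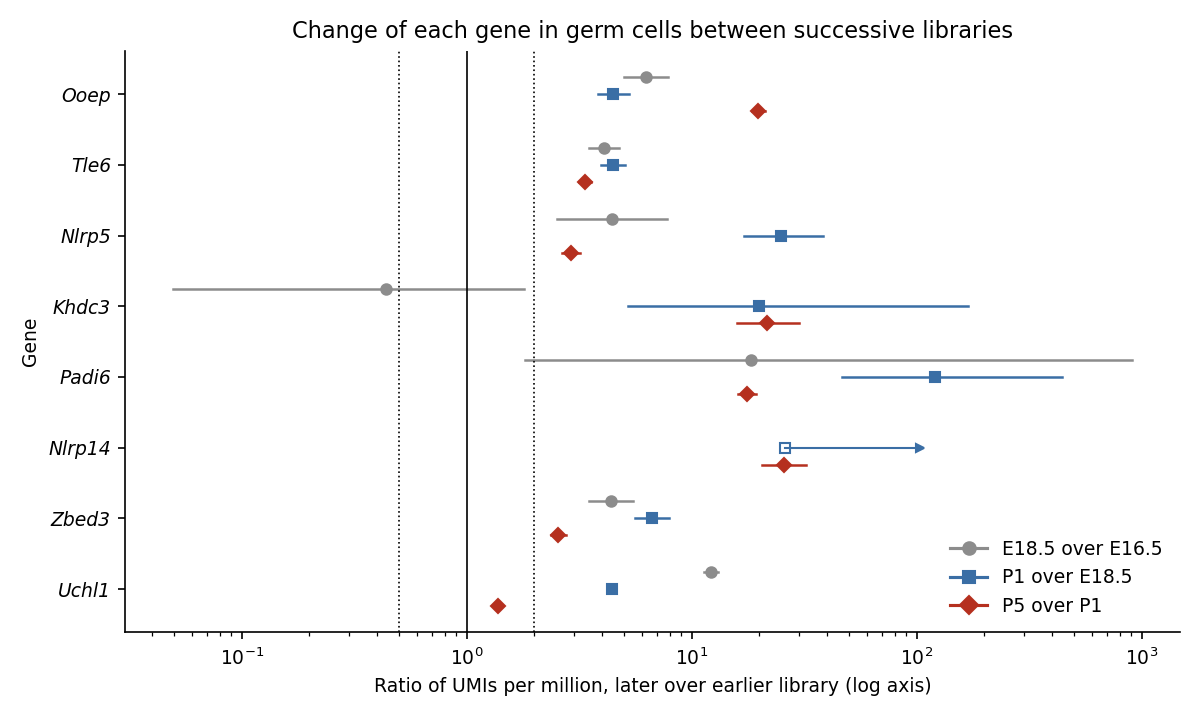
Ratio of CPM in gated germ cells between successive libraries (log axis), with 95% exact counting intervals. The solid line marks a ratio of 1 and the dotted lines 2-fold lower and higher. An open square with an arrow is a bound with 3 UMIs set in place of 0. Nlrp14 has no first point because it had 0 and 1 UMIs. From P1 to P5, Ooep, Khdc3, Padi6 and Nlrp14 lie between 17.5 and 25.7, and Tle6, Nlrp5, Zbed3 and Uchl1 between 1.38 and 3.35.

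The 4 genes with the larger ratios from P1 to P5 had intervals above those of the 4 with smaller ratios. From E18.5 to P1 the order was different, with Padi6 at 120 and Nlrp5 at 25, and with Ooep, Tle6 and Uchl1 at 4.47, 4.47 and 4.44. No 2 of these last 3 genes differed beyond their intervals in that step.

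The same genes were measured in ungated cells of each library, whose levels can hold free RNA as well as the cells' own RNA. Cells with 1 or 2 Dazl or Ddx4 UMIs, 68 to 1181 per library, were in neither set. Ungated levels may thus understate free germ cell RNA. In germ cells relative to ungated cells, 0 of 6 members tested were at least 10-fold higher at E11.5, where 2.43% of genes were, 0 of 7 at E12.5 (3.16% of genes), 1 of 7 at E14.5 (4.65%) and 1 of 7 at E16.5 (8.29%), this 1 being Khdc3 at both ages. The Khdc3 call rests on 35 against 2 UMIs at E14.5 and on 21 against 7 at E16.5 (ratio 10.8, 4.43 to 30.1), and at E16.5 it was lost with a stricter cell filter, with doublets removed, with somatic-marker cells removed, with TMM scaling or with at least 50 UMIs. At E18.5 it was 2 of 5, Nlrp5 and Uchl1 (6.43% of genes), at P1 7 of 8, all but Zbed3 (7.09%), and at P5 8 of 8 (7.04%), or 7 of 8 without the deepest P5 cell. Nlrp5 at E18.5, with 9 UMIs in ungated cells, passed the UMI limit only through germ cells. So did Khdc3 at E14.5 and E16.5, with 2 and 7 UMIs in ungated cells, and Khdc3 and Nlrp14 at P1, with 5 and 3. For these calls the filter favoured a higher level in germ cells. At P5 the ratio was 301 for Nlrp14, 270 for Khdc3, 263 for Padi6, 219 for Nlrp5, 111 for Ooep, 98 for Uchl1, 33.6 for Tle6 and 12.1 for Zbed3, which was at 8.64 (8.0 to 9.32) without the deepest cell. Khdc3 was at 223 (149 to 348) without that cell. For Padi6, Nlrp5, Khdc3 and Nlrp14 the ungated level was at most 5.82 CPM in any library, and it was highest at P5 for each of them, the library in which germ cells held the most. The ungated P5 interval of Khdc3 (0.375 to 0.855) overlapped that of E12.5 (0.274 to 0.677). That of Nlrp5 (1.26 to 2.05) overlapped that of P1 (0.871 to 1.55).

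Before E18.5 several of these RNAs were more abundant outside the germline than in it. Zbed3 was 26.6-fold lower in germ cells than in ungated cells at E12.5 (15.8 to 48.7), 15.2-fold lower at E14.5 (12.3 to 19.0) and 5.06-fold lower at E16.5 (4.32 to 5.97), and the 2 levels did not differ beyond their interval at E18.5. Tle6 was 2.13-fold lower in germ cells at E12.5 (1.69 to 2.73), 5.43-fold lower at E14.5 (4.83 to 6.12) and 1.90-fold lower at E16.5 (1.70 to 2.13). Ooep was 2.08-fold lower in germ cells at E16.5 (1.74 to 2.50), and higher in germ cells in the other 6 libraries.

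Ungated cells were then divided by the marker list of which they held the most UMIs, at least 3 of them, and named by those genes. Ooep in cells led by Upk3b and Krt19, genes of the ovarian surface epithelium, was at 6.95, 25.2, 57.4 and 97.8 CPM in the libraries from E11.5 to E16.5, and at 72.5 CPM at E18.5, 75 CPM at P1 and 182 CPM at P5, in 91 to 301 cells per library. In cells led by the mesenchymal genes Nr2f2, Col1a1 and Pdgfra it was at 1.48 to 3.39 CPM from E11.5 to P1 and at 10.1 at P5. In all 7 libraries together, Ooep was at 73.8 CPM in the Upk3b and Krt19 cells (69.9 to 77.8), at 12 in cells led by Wnt4, Wnt6, Kitl and Foxl2 (11.4 to 12.6), genes of pregranulosa cells, and at 3.38 in the mesenchymal-marker cells (3.09 to 3.70). The list of 2 genes is short, so these cells are named by Upk3b and Krt19 only.

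At E16.5 the level of Ooep in these cells was above that in germ cells, 97.8 CPM (86.5 to 110) against 5.62. At P5, Padi6 was at 6.23 CPM in the Upk3b and Krt19 cells (3.90 to 9.43), 4.86 in the Wnt4-list cells (3.89 to 5.98) and 5.29 in the mesenchymal-marker cells (4.19 to 6.59), with overlapping intervals. Ooep in the same 3 sets at P5 was at 182, 15.2 and 10.1 CPM. Tle6 was highest in the Wnt4-list cells, at 50.6 CPM over the 7 libraries, against 17.6 in the Upk3b and Krt19 cells and 4.0 in the mesenchymal-marker cells. Zbed3 was at 38.9, 50.2 and 50.9 CPM in these 3 sets in the same order over all libraries, but at 45.3, 38.3 and 39.9 CPM at P1 and 45.6, 42.2 and 39.6 at P5, with overlapping intervals at either age. Uchl1 was at 23.4, 51.8 and 13.5.

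**Figure D3:**
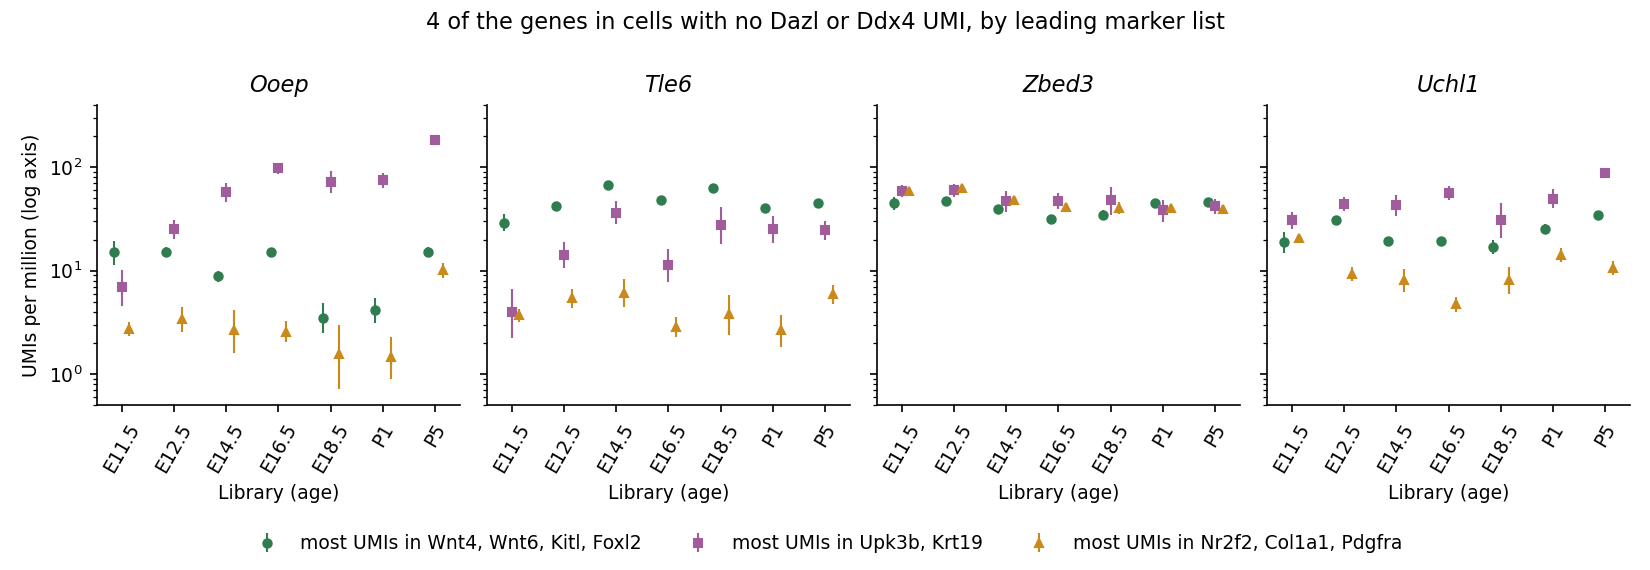
CPM (log axis) of 4 genes in cells with no Dazl or Ddx4 UMI, by library, divided by the marker list that gave the most UMIs, with 95% exact counting intervals. Ooep is highest in the Upk3b and Krt19 cells from E12.5 on and Tle6 in the Wnt4, Wnt6, Kitl and Foxl2 cells in all 7 libraries, while Zbed3 lies between 38.9 and 50.9 CPM in the 3 sets summed over libraries.

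Co-detection was counted after every cell was thinned at random to 2000 UMIs, because germ cells differed in depth between libraries, and 47, 6, 11 and 0 shallower gated cells were left out at E16.5, E18.5, P1 and P5. At least 4 of the 8 genes were detected together in 0% of 969 cells at E16.5, which allows a share of up to 0.380%, in 0% of 433 cells at E18.5 (up to 0.848%), in 9.44% of 233 cells at P1 (6.01 to 13.9) and in 75.8% of 62 cells at P5 (63.3 to 85.8). Without thinning the shares were 1.77, 5.01, 57.0 and 98.4%, at median depths of 25098, 12107, 20902 and 60954 UMIs. In ungated cells thinned in the same way, 0 of 4784 cells at P1 and 0 of 5411 at P5 had 4 or more. The median germ cell had 0 of the 8 genes at E16.5 and E18.5, 2 at P1 and 5 at P5 after thinning.

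Each gene was found in a larger share of thinned germ cells at P5 than at P1. Ooep was detected in 24.0% of cells at P1 (18.7 to 30.0) and 90.3% at P5 (80.1 to 96.4), Padi6 in 10.3% (6.71 to 14.9) and 74.2% (61.5 to 84.5), and Nlrp14 in 2.58% (0.951 to 5.52) and 43.5% (31.0 to 56.7). Uchl1 had the highest share at P1, 84.5%, and was found in 98.4% at P5. In thinned ungated cells at P5 the shares were 3.51% for Ooep, 1.05% for Padi6, 0.222% for Nlrp14 and 4.55% for Uchl1. All 8 genes were found in the same cell, without thinning, in 9 of 244 cells at P1 and 21 of 62 at P5.

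**Figure D4:**
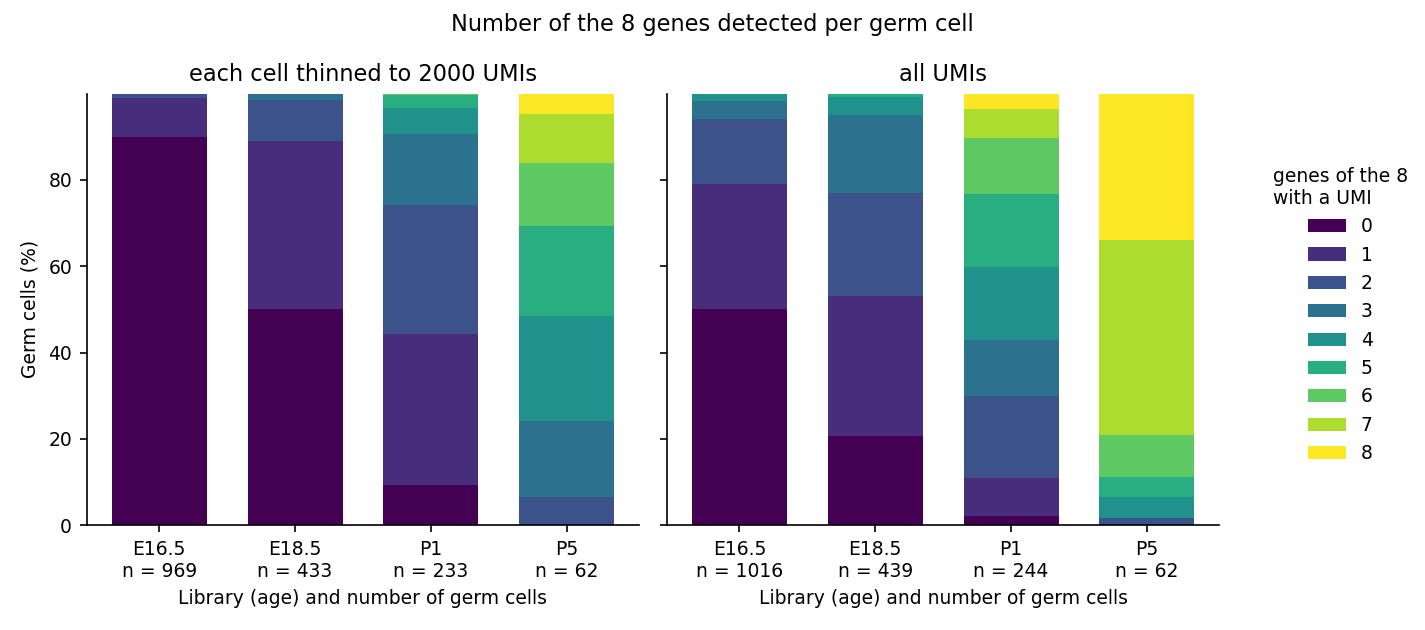
Share of gated germ cells (%) by the number of the 8 genes with at least 1 UMI, with each cell thinned to 2000 UMIs (left) and with all UMIs (right), the number of cells under each bar. After thinning, cells with 4 or more genes make up 0, 0, 9.44 and 75.8% of the bars from E16.5 to P5.

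Within a library the question was whether the genes were found in the same cells. At P1, 54 of 56 thinned cells with an Ooep UMI had another member (96.4%, 87.7 to 99.6), as did 155 of 177 cells without one (87.6%, 81.8 to 92.0), and these intervals overlapped. Uchl1 alone was found in 84.5% of thinned cells at P1. The share with any other member was thus near its ceiling and cannot show whether the other genes share cells. Tle6 was found in 16 of 24 cells with a Padi6 UMI (66.7%, 44.7 to 84.4) and in 45 of 209 without one (21.5%, 16.2 to 27.7), with intervals apart. With Nlrp5 as the first gene, Tle6 was found in 25.8% of cells with it and 26.2% of cells without it. These are examples from many possible pairs, and each rests on 1 random thinning. In P1 cells with more UMIs, CPM was higher for Padi6 (ratio 3.84) and Tle6 (2.26), which thinning does not remove. The part of depth in these shares was not tested. At P5 another member was found in every thinned cell, 56 of 56 with Ooep and 6 of 6 without. Uchl1, found in 61 of these 62 cells, all but fixed that result. At E18.5 the shares with another member were 53.6% of 28 cells with Ooep and 46.4% of 405 cells without it, and another random thinning gave 73.1% and 40.0%, so no order was read from them.

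Single germ cells spanned a wide range at both ages after birth. At P5, Ooep ran from 116 CPM through a median of 1852 to 8933, Padi6 from 0 through 954 to 4720, Nlrp14 from 0 through 141 to 1254 and Uchl1 from 108 through 2499 to 4326. At P1 the medians were 84.7 CPM for Ooep, 117 for Tle6, 99.9 for Zbed3 and 1877 for Uchl1, and 0 for Nlrp5, Khdc3, Padi6 and Nlrp14. The highest Nlrp5 value of any cell, 5119 CPM at P1, came from a cell with only 586 UMIs. The ranges of the 2 ages overlapped for all 8 genes, with the medians apart.

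For Pearson's r across the cells of 1 library, levels were taken as log2(CPM + 10). Between 2 members it was positive for all 28 pairs at both ages. It ran from 0.169 to 0.426 over 244 cells at P1, with a median of 0.285, and from 0.0632 (Nlrp5 and Uchl1) to 0.718 (Padi6 and Zbed3) over 62 cells at P5, with a median of 0.386. These cells share a library, and levels were also correlated with the cell's total UMIs, at r from 0.195 to 0.498 at P1 and from 0.0971 to 0.629 at P5. Many values at P1 are 0 or rest on few UMIs, and the correlations are given as a description.

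**Figure D5:**
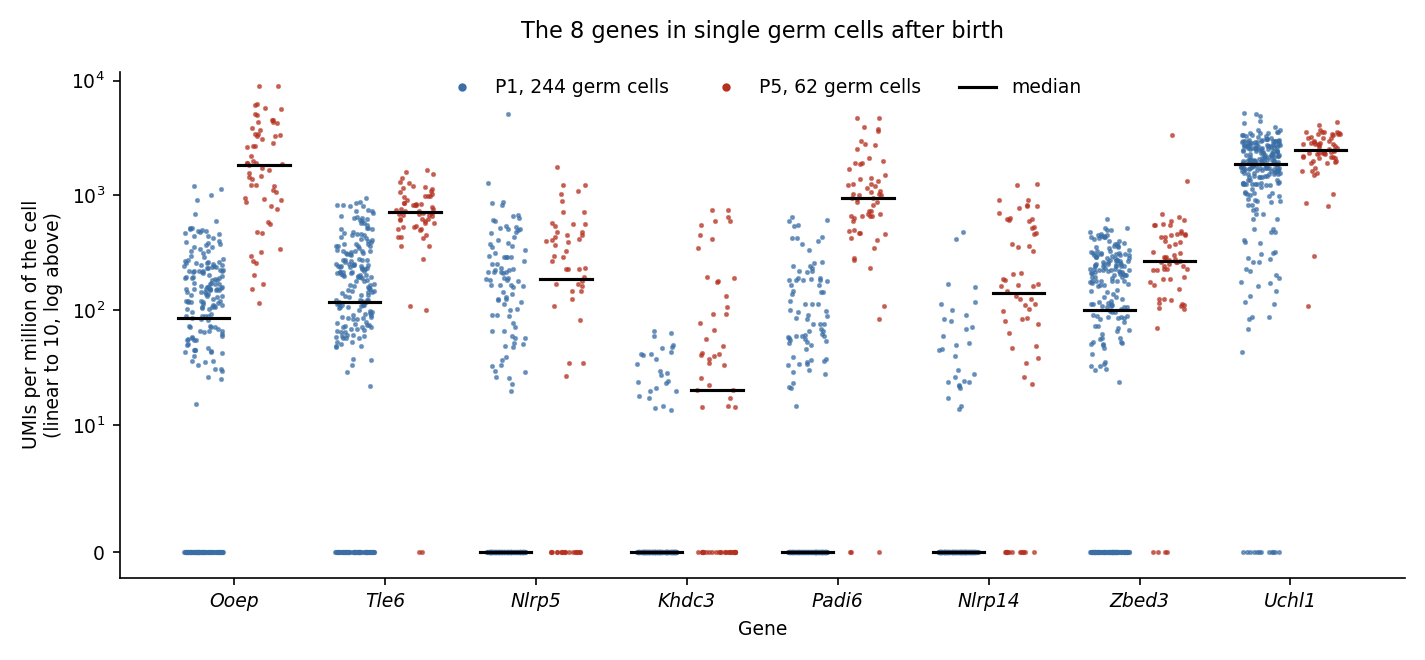
Level of each gene in single gated germ cells of P1 (blue) and P5 (red), in CPM of the cell on an axis that is linear to 10 and logarithmic above, with the median as a black line. The P5 median is above the P1 median for each gene, by most for Padi6 (0 and 954 CPM) and Ooep (84.7 and 1852) and by least in proportion for Uchl1 (1877 and 2499).

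After birth, and for 3 of the genes at E18.5, germ cells with more UMIs also had higher CPM. At P1, the ratio of cells above the median UMI count to cells below it was 1.64 for Ooep (1.37 to 1.99), 1.69 for Uchl1 (1.60 to 1.78), 2.26 for Tle6 (1.92 to 2.68) and 3.84 for Padi6 (2.71 to 5.61). At P5 it was 1.21 for Tle6 (1.11 to 1.32), 2.26 for Ooep (2.14 to 2.39) and 2.52 for Khdc3 (1.95 to 3.29). At E16.5 the intervals of the 6 members with UMIs on both sides spanned 1. At E18.5 it was 1.55 for Ooep (1.10 to 2.24), 2.30 for Zbed3 (1.49 to 3.69) and 1.505 for Uchl1 (1.37 to 1.65), and the intervals of Tle6, Nlrp5, Khdc3 and Padi6 spanned 1. Depth thus moved with the levels of at least 3 members within each library from E18.5 on and with age between P1 and P5, and its part in the difference between ages was not tested.

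Related gene lists give the context in the same germ cells. Of 9 measured oocyte Nlrp genes other than the members, 3 had enough UMIs from E16.5 to P5, and all 3 were at least 2-fold higher at P5, against 20.9% of all genes. Nlrp4b and Nlrp4f, with 0 and 5 UMIs at E16.5, had enough only through P5, so the filter all but fixed their direction. Nlrp4f was at 0.198 CPM at E16.5 and 221 at P5, Nlrp4c at 0.435 and 15.1, and Nlrp4b at 0 UMIs and 6.39 CPM. Of 19 genes from the families of the members, 5 of the 16 tested were at least 2-fold higher and 2 lower, against 20.9% and 32.4% of all genes, with a median ratio of 1.41. Tle4, a Groucho relative of Tle6, was at 112 and 128 CPM at the 2 ages, and Uchl3, a relative of Uchl1, at 210 and 330. The pluripotency-linked KH-domain gene Dppa5a was at 31.2 and 565 CPM, and Khdc1b at 0 UMIs and 192 CPM. Of the 5 higher genes, all but Dppa5a passed the UMI limit only through P5, Khdc1b among them. The filter thus all but fixed their direction.

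Among 23 other maternal-effect and egg genes, which include the zona pellucida and oocyte-secreted factors, 20 of the 21 tested were at least 2-fold higher at P5 than at E16.5, against 20.9% of all genes, with a median ratio of 288 against 255 for the members. Dppa3, which protects the maternal genome in the zygote, was at 6.13 CPM at E16.5 and 4426 at P5, and the egg-coat gene Zp3 at 0 UMIs and 1172 CPM. Tested genes of this list with 0 UMIs at E16.5, Zp3 among them, passed the UMI limit only through P5. So did H1foo, Oosp2, Zp1 and Zp2, with 1 UMI each at E16.5, and Zar1 and Mos, with 6 each. The filter all but fixed the direction of all these genes. They enter the count of 20 and the median, which thus cannot be set plainly against the share of all genes. For genes with 0 UMIs at E16.5 these ratios are lower bounds. Between E16.5 and E18.5, 3 of 11 genes of this list were higher, as against 5 of 6 members and 12.3% of all genes. The median ratios of the list and the members were 0.969 and 4.41. Of the 3 genes, Zp2, with 1 UMI at E16.5 and 25 at E18.5, passed the limit only through E18.5. Another had 6 and 4 UMIs.

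A list of 8 oocyte regulators holds 7 transcription factor genes, among them Figla, Sohlh1, Nobox and Lhx8, and the receptor gene Kit. From E16.5 to E18.5, 5 of the 7 tested were at least 2-fold higher, against 12.3% of all genes, and from E18.5 to P1 5 of 8, against 11.49%. Of the 5 genes higher at P1, Tbpl2 had 0 UMIs at E18.5 and 18 at P1. It passed the UMI limit only through P1, so the filter all but fixed its direction. From P1 to P5, 1 of 8 was at least 2-fold higher and 1 lower, close to the 15.1% and 13% of all genes, with a median ratio of 0.780 where that of the members was 10.4. Figla, which activates the zona pellucida genes, was at 135, 749, 1665 and 1115 CPM at E16.5, E18.5, P1 and P5. Sohlh1 was at 12.9, 258, 672 and 670 CPM, Lhx8 at 14, 169, 303 and 238, and Nobox at 6.29, 83.7, 173 and 308.

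The genes most like the members in pattern were ranked by Pearson's r of log2(CPM + 10) with the mean of Ooep, Tle6, Padi6, Nlrp5 and Khdc3 over 14 pools, the germ and ungated cells of each library, among 14622 genes. The first was Zp2 (r = 0.995) and the ninth Zp3 (r = 0.993), both genes of the egg coat. The others of the first 10 were Gm1587, Tsga10ip, Gm34933, Ankrd36, AC159282.1, F630040K05Rik, C130026I21Rik and 4732465J04Rik. Their levels in P5 germ cells ran from 7.56 CPM for Gm34933, below the added 10 CPM, to 186 for Tsga10ip. A high r thus does not mean a like level. In germ cells at E16.5 and E18.5 each of the first 10 was at 4.54 CPM or less, also below the added 10 CPM. Among the germ cell pools from E16.5 on, P1 and P5 thus weigh most in r. Of the members outside that mean, Nlrp14 ranked 114 (r = 0.968), Uchl1 430 (r = 0.868) and Zbed3 747 (r = 0.794). The pools of 1 library share its depth and free RNA, and r is given as a description.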

How the data were processed

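The deposited UMI counts per gene and cell were made by the authors with Cell Ranger 3.1.0 on mm10 from 10x Genomics droplets, version 2 per the labels for all libraries; these counts are not normalized, and library depth is given above. Cells with at least 200 genes were kept (50823 of 52542). Germ cells had at least 3 UMIs of Dazl plus Ddx4. UMIs were summed over cells, and CPM, ratios and shares were given exact 95% counting intervals in Python 3.11.15 with scipy 1.17.1; a count of 0 was set to 3 UMIs in ratios. Genes with at least 10 UMIs over 2 pools were tested against a fold of 2 between ages or 10 over ungated cells. No test across libraries was possible with 1 library per age. The functions were tested on simulated data. Doublets were kept, and those called by Scrublet (scanpy 1.11.5) were removed as an alternative; its own cutoff took just 0.0242% of the E11.5 cells, so that in both earliest libraries the highest 5% of scores were used. edgeR 4.0.16 gave TMM factors as an alternative. Other genes were named by their UMI sum at P5, up to 4 in a list, or as the 10 genes most like the mean of 5 members. The members and lists were chosen with earlier results of these data known.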

Additional observations from a re-analysis of the deposited data

How the results depend on the processing

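No paired analysis was possible because each age has 1 library and the labels give no replicate numbers, and for the same reason no replicate could be left out. Over 22 alternatives and 3 added after seeing the data, 237 values of counts and shares moved by less than 1.5 times or within their counting interval and 52 moved by more, and of the members' log2 ratios 323 stayed within their interval and 44 moved, with 0 changes of sign. Ratios that moved by over 1.5 times, beside those given above, were those of Khdc3 from E16.5 to E18.5 (0.704 with somatic-marker cells removed) and from E18.5 to P1 (down to 10.6), of Padi6 from E16.5 to E18.5 (5.16 to 44.9) and from E18.5 to P1 (down to 69.0), of Nlrp14 from E18.5 to P1 (its bound down to 15.5), and of Padi6 and Nlrp14 from E16.5 to P5. From P1 to P5, 4 members were higher when a 4-fold limit replaced the 2-fold one. Members at least 10-fold above ungated cells numbered 1 at E11.5 with a gate of 5 UMIs, with no minimum of UMIs or at a 4-fold limit, 1 at E12.5 at 4-fold, 0 at E14.5 with at least 50 UMIs, and 0 at E16.5 with a stricter cell filter (1000 genes, up to 10% of UMIs mitochondrial), with doublets removed, with gated cells holding somatic markers removed, with TMM or with at least 50 UMIs. At E18.5 it was 1 with somatic-marker cells removed or with at least 50 UMIs. The share of all genes under these changed settings is not given here. These counts of members, among them those at a 4-fold limit, thus cannot be set against all genes.

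The share of germ cells with 4 or more members depended on depth. At E16.5 it was 1.77% not thinned, and 1.14% for at least 2 members. At E18.5 it was 1.01% at 5000 UMIs, 2.11% at 10000, 5.01% not thinned and 11.1% for at least 2 members. At P1 it was 14.4% with a gate of 10 UMIs, 27.9% at 5000, 45.7% at 10000, 57.0% not thinned, 55.8% for at least 2 and 0.429% for at least 6 members. At P5 it was 94.9% at 5000, 100% at 10000, 98.4% not thinned, 100% for at least 2 and 30.6% for at least 6. The share of Ooep-positive cells with another member was 0% at E16.5 with a gate of 5 and 76.0% not thinned. At E18.5 it was 76% under the stricter cell filter, 74.5% at 5000, 90.1% at 10000, 93.2% not thinned and 73.1% with another seed, and at P1 100% with a gate of 5, the stricter filter, somatic-marker cells removed or 5000 UMIs. Among Ooep-negative cells it was 7.06% at E16.5 with somatic-marker cells removed, 17.2% at 5000, 28.7% at 10000 and 44.3% not thinned, at E18.5 63.7%, 77.9% and 71.7% at these 3 depths and 40.0% with another seed, and at P1 92.5% with a gate of 10, 96.3% at 10000 and 93.8% not thinned. TMM shifted the log2 ratio of all genes by 0.10 from E18.5 to P1 and median-of-ratios scaling by 0.14 from E16.5 to P5. Replacing the E16.5 library, an alternative chosen after seeing the data, gave 6 and 8 members. Padi6, among the 6, had an interval that spans no change. The 62 germ cells at P5 and the few UMIs of Padi6, Nlrp14 and Khdc3 before birth limit the precision.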
